A study of Mus musculus with 2 samples.

Results

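Costimulatory receptors of the TNF receptor family, their ligands and the receptor ICOS were examined in single-cell RNA-seq of mouse tumors, as 9 genes out of the 32285 features measured. The receptors were Tnfrsf4 (OX40), Tnfrsf9 (4-1BB), Tnfrsf18 (GITR), Cd27, Cd40 and Icos, and the ligands were Cd40lg, Tnfsf4 (OX40 ligand) and Tnfsf9 (4-1BB ligand). They were chosen by symbol, as a family, and each symbol matched 1 feature. MC38 is a mouse colon carcinoma line, and its subcutaneous tumors were either left as the labelled untreated negative control or injected intratumorally with MSA-2, a small-molecule agonist of the innate DNA-sensing adaptor STING. A course of 3 doses was given at intervals of 3 days and cells were sorted from tumors collected on day 7, with tumors of 3 mice pooled into 1 library per group. The series record describes the control as injected with vehicle and the methods as given saline, so the control may not be free of injection. Without a second library per group the spread between tumors is unknown, no test between groups was made, and each interval below is an exact 95% interval of counting error in the unique molecular identifiers (UMIs).

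A T cell that has met its antigen needs further signals to divide and survive. OX40, 4-1BB, GITR, CD27 and ICOS deliver such signals, and apart from CD27, which naive T cells carry, they are mostly induced by activation, with OX40, GITR and ICOS high on regulatory T cells (Tregs). Their ligands sit on antigen-presenting cells and some lymphocytes, and CD40 on dendritic cells (DCs), macrophages and B cells receives the signal of CD40 ligand from helper T cells. The TNF receptor members pass their signal through TRAF adaptors to NF-κB, whereas ICOS, of the CD28 family, signals through phosphoinositide 3-kinase.

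The libraries held 198135335 UMIs in 14386 barcodes (untreated) and 204387165 UMIs in 14617 barcodes (MSA-2), of which 13316 and 13403 cells were kept, and 53 barcodes occurred in both. Cells were assigned to classes by marker genes, and expression was taken as the UMIs of a gene per 1000000 UMIs of the class (CPM). The class of NK/T-like cells held 1523 untreated cells, 11.4% of all, and 293 MSA-2 cells, 2.19%. Its CD8 T-like cells numbered 803 and 97, its Treg-like cells 160 and 17, its cycling T-like cells 119 and 39, its T cells led by Il17a 187 and 26, and its NK-like cells 254 and 114. NK-like cells therefore made up 16.7% of the untreated class and 38.9% of the MSA-2 class. Defining markers were present: Foxp3, the lineage factor of Tregs, was at 214 CPM and 348 CPM in Treg-like cells, and the NK receptor Ncr1 at 229 CPM and 151 CPM in NK-like cells. The full lists moved the other way. The 5 Treg markers summed to 4362 CPM and 3295 CPM in Treg-like cells. The 9 NK markers summed to 3310 CPM and 7572 CPM in NK-like cells. The part of these shifts in the ratios was not tested. Myeloid-like cells numbered 4163 and 1801, neutrophil-like cells 56 and 2650, and epithelial-like cells, taken as the class of the tumor line, 6312 and 6970. In that class the epithelial marker Krt18 had only 0 and 1 UMIs. The 6 epithelial markers summed to 3033 CPM and 3667 CPM there and to 3150 CPM and 1944 CPM in fibroblast-like cells. Their sum thus did not set the 2 classes apart in untreated tumors.

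Per genome build mm10 (GENCODE M21), 3 of the receptors lie on chromosome 4. Tnfrsf4 occupies chr4:156013843-156016612 and Tnfrsf18 chr4:156026164-156028895, both on the plus strand with 9551 bases between them, and Tnfrsf9 lies at chr4:150914562-150946102. Icos is at chr1:60977927-61000320, Cd27 at chr6:125232622-125237010 on the minus strand, Cd40 at chr2:165055627-165072948, Cd40lg at chrX:57212143-57224042, Tnfsf4 at chr1:161395409-161418410 and Tnfsf9 at chr17:57105325-57107757. RefSeq (GRCm38.p6) sequence before the start site was at hand for 4 of the 9 genes. For Tnfrsf4 and Cd27 that start site lies before the gene position given above. The bases just after it did not match a GENCODE transcript of either gene. The stretches outside annotated exons are printed 5′ to 3′ for the 2 neighbours and for Tnfrsf9, whose ratio differed in direction between cell classes. Capitals mark GGAAA, the core of NFAT sites, on either strand.
Tnfrsf4, chr4:156013611-156013694, plus strand: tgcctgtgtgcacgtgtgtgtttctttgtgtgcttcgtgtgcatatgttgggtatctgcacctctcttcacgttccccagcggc
Tnfrsf18, chr4:156026072-156026163, plus strand: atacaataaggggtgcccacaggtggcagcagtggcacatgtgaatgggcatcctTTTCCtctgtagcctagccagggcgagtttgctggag
Tnfrsf9, first start site, chr4:150919905-150920154, plus strand: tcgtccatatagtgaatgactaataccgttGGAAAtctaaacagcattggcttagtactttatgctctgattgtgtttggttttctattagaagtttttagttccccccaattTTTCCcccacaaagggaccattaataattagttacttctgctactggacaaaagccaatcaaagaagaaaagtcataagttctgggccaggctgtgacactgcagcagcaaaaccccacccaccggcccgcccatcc
In the full 250 bases before each start site, on both strands, GGAAA was found 1 time for Tnfrsf4 and Cd27 and 2 times for Tnfrsf18 and the first start site of Tnfrsf9, and 55.6% of 32851 windows of that length hold it. The NF-κB consensus and the AP-1 motif TGANTCA were absent from these 4 windows. The second start site of Tnfrsf9 had 2 overlapping NF-κB matches, which share bases with a GGAAA match, and 1 AP-1 match, against 7.25% and 6.75% of all windows with a match. Such matches only describe the letters of these windows, and 3′ reads do not tell which start site was used.

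The 5 receptors of lymphocytes lay mainly in NK/T-like cells of the untreated tumors, which held 82.4% of the UMIs of Tnfrsf4, 71.4% of Tnfrsf9, 80.4% of Tnfrsf18, 83.1% of Icos and 76.4% of Cd27. In the MSA-2 library the class held 59.7%, 26.6%, 64.0%, 78.7% and 50.9% of them. Tnfrsf9 changed its place most, with 53.1% of its MSA-2 UMIs in epithelial-like cells, against 18.4% in the untreated library. Over all cells of a library Icos went from 10.3 CPM to 0.906 CPM, a log2 ratio of -3.50 (95% interval -3.73 to -3.28), and Tnfrsf4 from 12.2 CPM to 1.21 CPM (-3.33, -3.53 to -3.13). Tnfrsf18 (-2.18), Cd40lg (-2.56), Cd27 (-1.48) and Tnfrsf9 (-1.05) were also lower by 2-fold or more over all cells, while Tnfsf4 (-0.52), Cd40 (-0.44) and Tnfsf9 (0.26) were within 2-fold. In such sums fewer cells of a class and less RNA per cell cannot be told apart, so all later values are within classes.

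**Figure D1:**
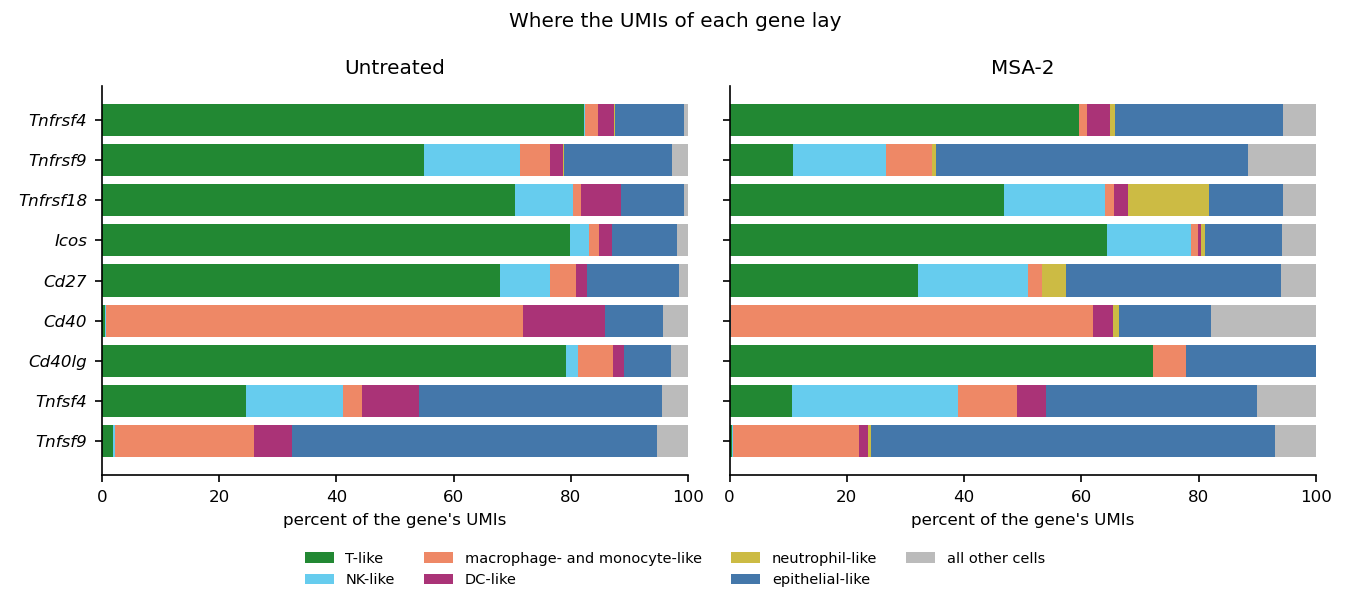
Percent of the UMIs of each of the 9 genes (bars, x axis) that lay in each group of cell classes, in the untreated library (left) and the MSA-2 library (right). T-like and NK-like cells together held 71.4% of Tnfrsf9 UMIs in untreated tumors and 26.6% in MSA-2-treated ones, and most Tnfsf9 UMIs lay in epithelial-like cells of both.

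Within NK/T-like cells Tnfrsf4 and Icos were lower by 2-fold or more in MSA-2-treated tumors and Tnfsf4, the OX40 ligand, was higher. Tnfrsf4 fell from 310.3 CPM (1840 UMIs) to 88.5 CPM (139 UMIs), a log2 ratio of -1.81 (-2.07 to -1.56). Icos fell from 263 CPM to 87.2 CPM, a log2 ratio of -1.59 (-1.86 to -1.34). Tnfrsf9 was at 689 CPM and 490.1 CPM (-0.49, -0.60 to -0.38) and Tnfrsf18 at 260.2 CPM and 181 CPM (-0.52, -0.71 to -0.34), so both were lower by less than 2-fold. Cd27 differed by less than its counting error, at 74.7 CPM and 70.7 CPM (-0.08, -0.39 to 0.22). Tnfsf4 rose from 37.4 CPM to 98.0 CPM, a log2 ratio of 1.39 (1.08 to 1.69). Of the 8 genes with at least 20 UMIs in the class, 2 were lower and 1 higher by 2-fold or more, beside 8.8% lower and 5.34% higher of all 11130 features tested. The median log2 ratio of the 8 genes was -0.51 and that of all features -0.14. Without integration of the libraries the calls for Tnfrsf4 (-0.77), Icos (-0.90) and Tnfsf4 (0.58) were lost, in a class that then held 182 MSA-2 cells of which 180 were T-like. In the integrated class the summed level of the 11 neutrophil markers was 38.6 CPM and 416 CPM and that of the 9 macrophage markers 1016 CPM and 238 CPM in untreated and MSA-2 libraries, and their part in the ratios was not tested.

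Since NK-like cells took a larger share of the class after MSA-2 and had next to no Tnfrsf4 (5 UMIs without and 0 with MSA-2), the ratios were also formed at a fixed make-up. Here the CPM of each sub-class was weighted by its share of UMIs in the untreated class. The log2 ratio of Tnfrsf4 was then -1.03 in place of -1.81, that of Icos -0.81 in place of -1.59 and that of Tnfrsf18 -0.12 in place of -0.52. Tnfrsf9, which NK-like cells also carry at a high level, moved the other way, to -0.66 from -0.49, and Tnfsf4 was at 0.91 instead of 1.39. Tnfrsf4 thus stayed past 2-fold at a fixed make-up and Icos and Tnfsf4 did not. In T-like cells alone, without NK-like cells, Tnfrsf4 went from 407 CPM to 187 CPM (-1.12, -1.38 to -0.87) and Icos from 332 CPM to 150.4 CPM (-1.14, -1.43 to -0.87). They were the 2 of 8 genes lower by 2-fold or more there, with none higher, beside 10.6% lower and 6.2% higher of all features. At a clustering resolution of 0.5 these ratios were -0.76 and -0.71.

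**Figure D2:**
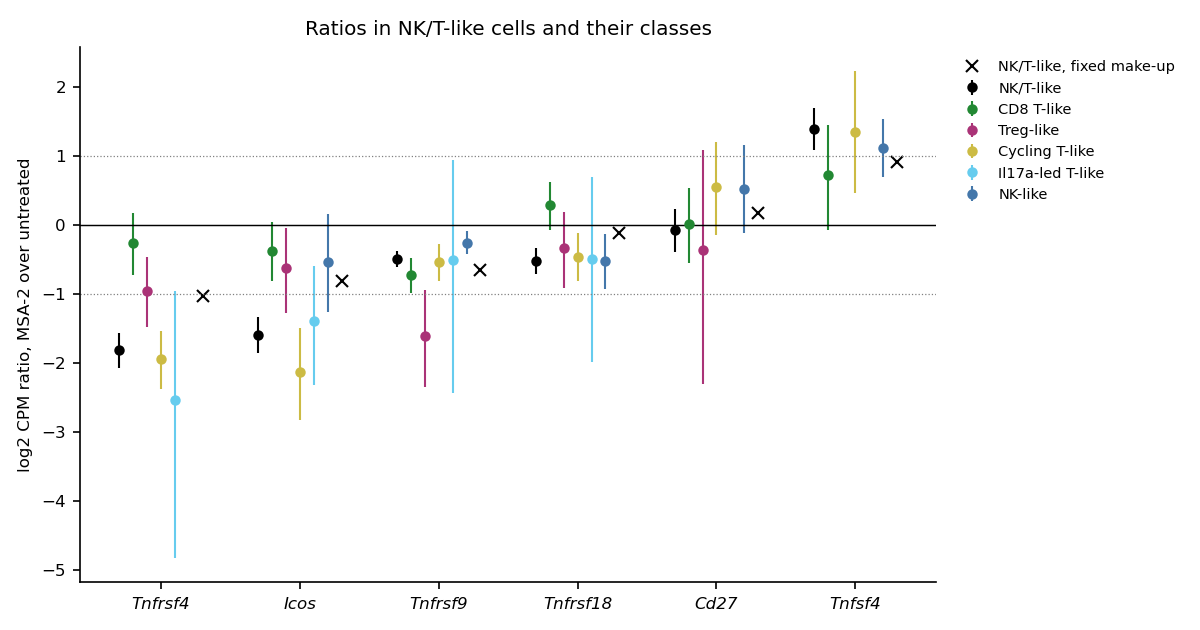
Log2 CPM ratio of MSA-2 over untreated (y axis) of 6 genes in NK/T-like cells and in each sub-class with at least 20 UMIs, with exact 95% intervals of counting error, and at a fixed make-up of the class (crosses). Dotted lines mark 2-fold. Tnfrsf4 lay at -1.81 in the whole class and at -1.03 at a fixed make-up, and at -0.26 in CD8 T-like cells.

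CD8 T-like cells, the cytotoxic lineage, kept every one of their 7 tested genes within 2-fold, beside 14.4% lower and 6.67% higher of all 9091 features tested. Tnfrsf9 was the gene with the clearest difference, at 698 CPM and 420.1 CPM (-0.73, -0.99 to -0.48). Tnfrsf4 was at 171 CPM and 142 CPM (-0.26, -0.73 to 0.17), Icos at 204 CPM and 157 CPM (-0.38, -0.81 to 0.03) and Tnfrsf18 at 204 CPM and 248 CPM (0.28, -0.07 to 0.62). Intervals of all 3 included 0. Cd27 was equal within error, at 99.1 CPM and 99.7 CPM. When cells were instead picked by a UMI of Cd8a or Cd8b1, Icos was lower by more than 2-fold, at 193 CPM and 91.5 CPM (-1.08, -1.54 to -0.65), so the size of the Icos difference in these cells depended on how they were defined. Foxp3 had 3 UMIs among untreated CD8 T-like cells and 0 among those given MSA-2. By cluster, Tnfrsf9 was at -0.88 (-1.16 to -0.62) in the one led by Gm156 and 0.32 (-0.55 to 1.09) in that led by Ccl1. It had 87 and 0 UMIs in the cluster led by Gzmk and 40 and 1 in that led by Aff3, so its difference was uneven. The 8 T cell markers summed to 5182 CPM and 3174 CPM in the class, and their part was not tested.

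Treg-like cells had the highest levels of Tnfrsf4, Tnfrsf9, Tnfrsf18 and Icos of any class in the untreated library. Tnfrsf4 was at 1617 CPM there and at 835 CPM among the 17 MSA-2 cells (-0.95, -1.48 to -0.47), and in both libraries it was above its level in CD8 T-like cells. Tnfrsf18 was at 940 CPM and 743 CPM (-0.34, -0.91 to 0.18) and Icos at 899 CPM and 580.1 CPM (-0.63, -1.28 to -0.05). Tnfrsf9 fell from 1344 CPM to 441 CPM (-1.61, -2.35 to -0.95), the 1 gene of 5 past 2-fold, beside 25.3% lower and 8.62% higher of all 3746 features tested. The MSA-2 value rests on 19 UMIs. Tnfrsf4 was past 2-fold under 2 of 12 alternatives, at -1.24 with equal weight per cell, so Tnfrsf9 did not stand alone under every scaling. Cells with a Foxp3 UMI gave a log2 ratio of -1.76 (-2.90 to -0.82) for Tnfrsf9 and of -0.76 (-1.34 to -0.23) for Tnfrsf4, and one of -1.78 (-3.10 to -0.71) for Icos, which was past 2-fold in this selection. It held 84 untreated and only 9 MSA-2 cells, with 9 MSA-2 UMIs of Tnfrsf9 and 7 of Icos. After each cell was thinned to 1500 UMIs, 78.4% of 139 untreated and 84.6% of 13 MSA-2 Treg-like cells had a Tnfrsf4 UMI (exact intervals 70.6% to 84.9% and 54.6% to 98.1%), against 86.2% and 70.6% without thinning, so no order is read from these shares.

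**Figure D3:**
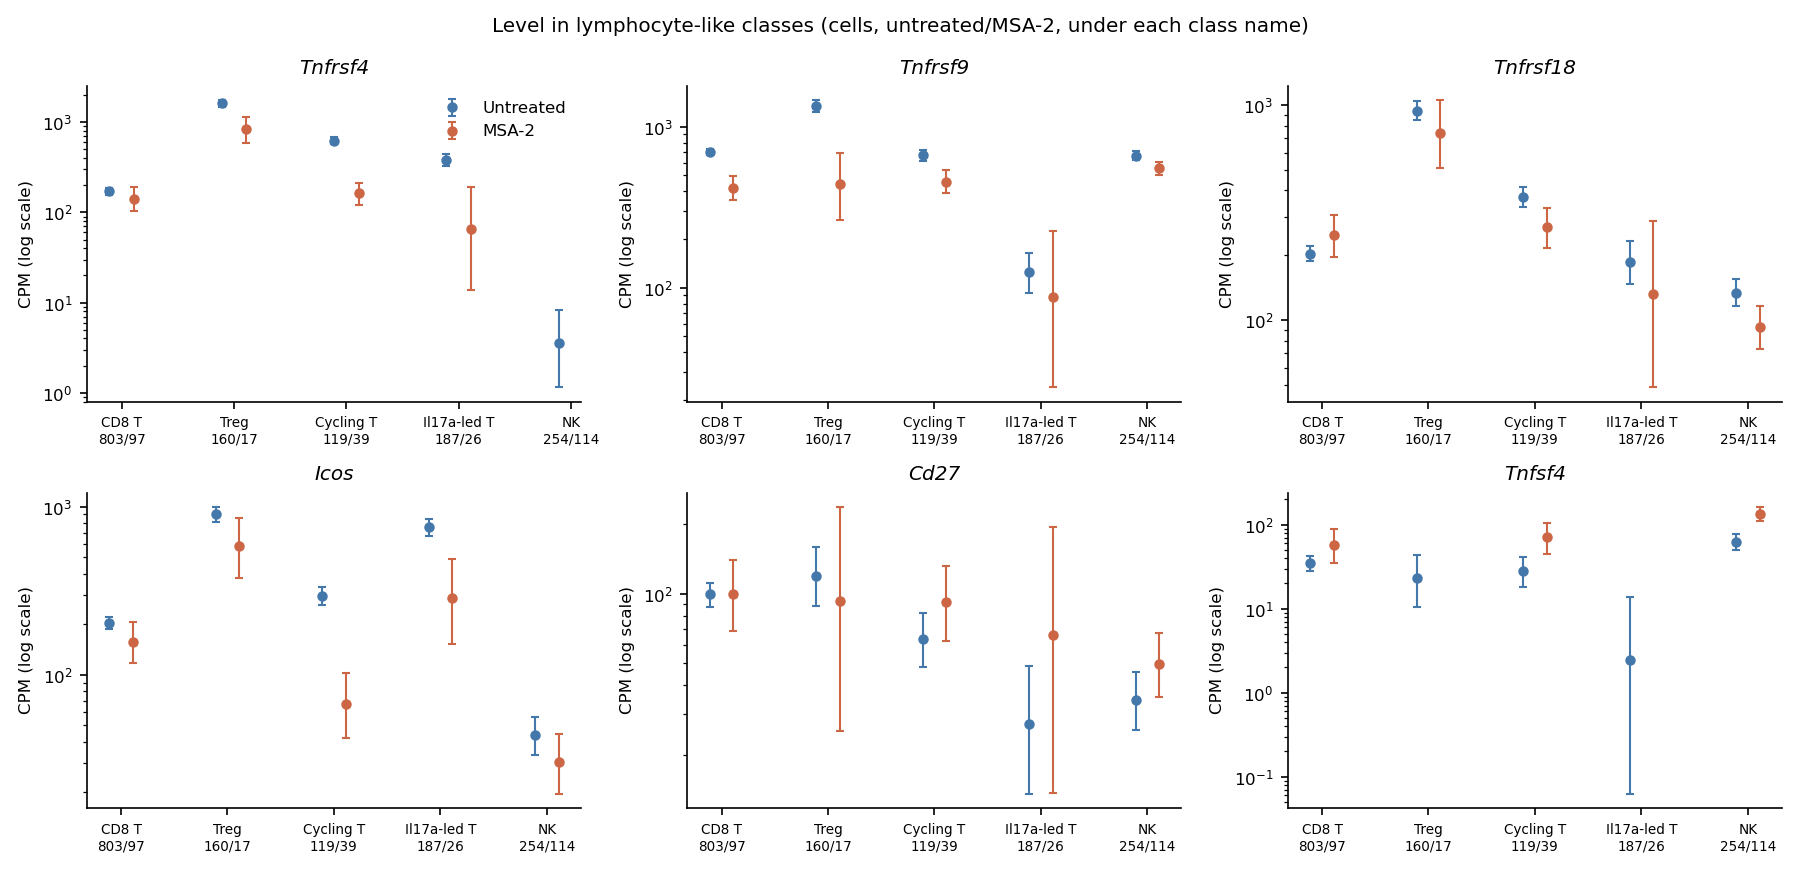
Level (CPM, log axis) of 6 genes in 5 lymphocyte-like classes of the untreated (blue) and MSA-2 (orange) libraries, with exact 95% Poisson intervals, and numbers of cells under each class name. Libraries with no UMI have no point. Treg-like cells had the highest Tnfrsf4 in both libraries, at 1617 CPM and 835 CPM.

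Cycling T-like cells, which carry proliferation genes, differed more. Tnfrsf4 fell from 627 CPM to 163 CPM (-1.94, -2.38 to -1.54), Icos fell from 295.5 CPM to 67.6 CPM (-2.13, -2.83 to -1.50) and Tnfsf4 rose from 27.8 CPM to 70.6 CPM (1.35, 0.46 to 2.22). These 3 of 6 tested genes compare with 11.1% lower and 5.5% higher of all features. The class was a mixture: 17.6% of it in untreated tumors and 2.56% after MSA-2 had a Foxp3 UMI, and 56.3% and 76.9% had a Cd8a UMI. The part of this shift in the ratios was not tested. Tnfrsf9 (668 CPM and 458 CPM) and Tnfrsf18 (372 CPM and 270.2 CPM) were within 2-fold, and Cd27 was at 63.3 CPM and 92.1 CPM (0.54, -0.15 to 1.20).

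T cells led by Il17a, the cytokine of type 17 responses, held the largest part of the transcripts of CD40 ligand. They had 63.4% of all Cd40lg UMIs of the untreated library, at 157 CPM, and 44.4% of those of the MSA-2 library, at 177 CPM, a log2 ratio of 0.17 (-1.11 to 1.23) over 64 and 8 UMIs. In CD8 T-like cells Cd40lg was at 3.91 CPM and 6.04 CPM and in NK-like cells at 1.41 CPM and 0 CPM, each from 11 UMIs or fewer. Tnfrsf4 (384 CPM and 66.3 CPM, -2.53, -4.83 to -0.96) and Icos (753 CPM and 287 CPM, -1.39, -2.32 to -0.59) were lower by 2-fold or more in this class, 2 of 5 genes with none higher, beside 25.5% lower and 10.4% higher of all features. The 26 MSA-2 cells gave only 3 UMIs of Tnfrsf4. A UMI of Il17a itself was found in 8.56% of this class without and 30.8% with MSA-2. Whether the make-up of the class or the level of Il17a per cell differed was not tested.

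NK-like cells, innate killers, carried Tnfrsf9 at 665 CPM and 556 CPM (-0.26, -0.42 to -0.10), close to its level in untreated CD8 T-like cells. Without integration this ratio was 0.25. That value rests on very few MSA-2 cells, since nearly all NK/T-like ones were then T-like. Whether the sign is stable could therefore not be judged. Tnfrsf18 was at 134 CPM and 93.2 CPM (-0.52, -0.93 to -0.14), Icos at 43.8 CPM and 30.3 CPM (-0.53, -1.26 to 0.16) and Cd27 at 34.6 CPM and 49.6 CPM (0.52, -0.11 to 1.15). Tnfsf4 rose from 62.8 CPM to 136 CPM (1.11, 0.70 to 1.53), the 1 gene of 5 past 2-fold, beside 5.25% higher and 8.04% lower of all features. Its UMIs came from 42 untreated cells and 26 MSA-2 cells, and the share of cells with a UMI at equal depth did not show the difference, at 8.87% (5.64% to 13.1%) and 8.11% (3.77% to 14.8%). Under a stricter cell filter, of 1000 genes or more and no more than 10% of UMIs from mitochondrial genes, the ratio was 0.59.

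The number of receptors seen in 1 cell was counted over Tnfrsf4, Tnfrsf9, Tnfrsf18, Icos and Cd27 after thinning to 1500 UMIs. At least 3 of the 5 were present in 16.5% (14.6% to 18.5%) of 1438 untreated and 7.22% (4.41% to 11.1%) of 263 MSA-2 NK/T-like cells. Among Treg-like cells the shares were 70.5% (62.2% to 77.9%) and 61.5% (31.6% to 86.1%), among CD8 T-like cells 10.8% (8.65% to 13.2%) and 8.24% (3.38% to 16.2%), and among cycling T-like cells 26.9% (19.2% to 35.8%) and 7.69% (1.62% to 20.9%). Within Treg-like and CD8 T-like cells the intervals overlapped widely. NK-like cells, with shares of 2.42% and 0.901%, made up 16.7% of the untreated class and 38.9% of the MSA-2 class. Treg-like cells made up 10.5% and 5.80% of it. No fixed make-up was formed for these shares, so the part of the make-up in them was not tested. In epithelial-like cells 98.1% and 98.3% had none after thinning, but they are no receptor-free control for Tnfrsf9, of which 12.7% and 14.1% of them had a UMI at full depth. Median depth before thinning was 3284 and 4234 UMIs in NK/T-like cells.

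**Figure D4:**
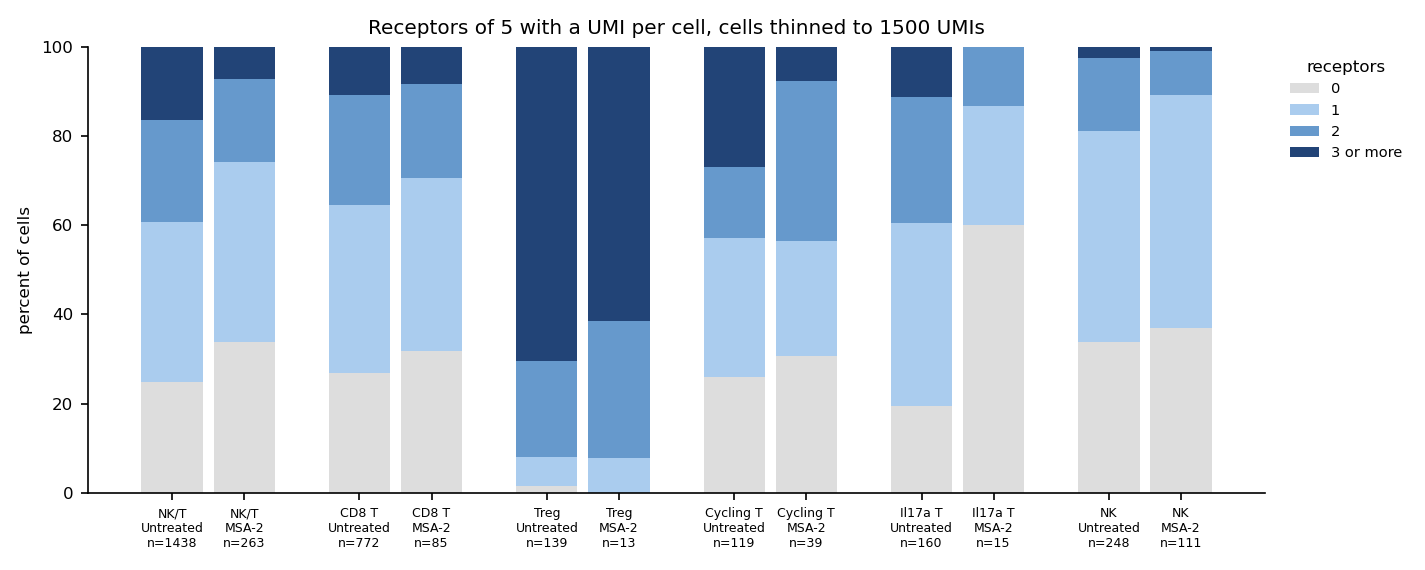
Percent of cells (y axis) with a UMI of 0, 1, 2 or at least 3 of 5 receptors in lymphocyte-like classes of each library, after each cell was thinned to 1500 UMIs, with the number of cells under each bar. Treg-like cells had at least 3 receptors in 70.5% of untreated and 61.5% of MSA-2 cells, and NK-like cells in 2.42% and 0.901%.

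In myeloid-like cells the ligands Tnfsf9 and Tnfsf4 were higher after MSA-2 by 2-fold or more. Tnfsf9 rose from 26.9 CPM to 72.5 CPM (1.43, 1.27 to 1.59), Tnfsf4 rose from 2.85 CPM to 6.88 CPM (1.27, 0.75 to 1.79, with 0.99 as UMIs per cell and 2.29 at resolution 2) and Cd40 was within 2-fold, at 39.0 CPM and 64.8 CPM (0.73, 0.58 to 0.88). Tnfrsf9 was at 17.2 CPM and 26.4 CPM (0.62, 0.38 to 0.85). Of 8 tested genes 2 were higher and 4 lower by 2-fold or more, beside 9.14% higher and 8.97% lower of all 13813 features. The 4 lower genes were Tnfrsf4, Tnfrsf18, Icos and Cd27, none above 6.47 CPM in either library, and in epithelial-like cells Tnfrsf4 (1.84 CPM and 0.413 CPM), Tnfrsf18 (1.43 CPM and 0.345 CPM) and Icos (1.44 CPM and 0.142 CPM) were likewise lower. The summed level of the 8 T cell markers moved the same way in both classes, from 31.7 CPM to 3.67 CPM in myeloid-like and from 18.3 CPM to 3.20 CPM in epithelial-like cells, and its part in these ratios was not tested. The make-up of the myeloid-like class shifted as well: Ly6c2 monocyte-like cells made up 7.81% of it in untreated and 25.9% in MSA-2-treated tumors, the macrophage markers summed to 34736 CPM and 20995 CPM, the Ly6c2 monocyte markers to 1272 CPM and 4043 CPM and the neutrophil markers to 230.2 CPM and 2188 CPM, and the part of these cells in the ratios was not tested. With every cluster of myeloid-like cells weighted by its untreated share of UMIs (a fixed make-up), Tnfsf9 was at 1.49 and Tnfsf4 at 1.57, both still past 2-fold, and Cd40 was at 0.42. Tnfrsf9 changed sign to -0.58 and was within 2-fold, and Icos (-0.33), Tnfrsf4 (0.11) and Tnfrsf18 (0.50) were then no longer lower by 2-fold, in a weighting that also takes values from clusters with as few as 1 MSA-2 cell. In epithelial-like cells the 3 genes stayed lower, at -2.15, -1.95 and -3.46 for Tnfrsf4, Tnfrsf18 and Icos. The 3 genes were the only ones of 8 past 2-fold in epithelial-like cells, beside 6.03% lower and 11.3% higher of all features.

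Macrophage-like cells, numbering 3013 and 1273, made up most of the class. Tnfsf9 rose from 24.6 CPM (467 UMIs) to 75.0 CPM (497 UMIs), a log2 ratio of 1.61 (1.43 to 1.80), and the share of cells with a UMI at equal depth was 3.46% (2.84% to 4.18%) and 8.94% (7.42% to 10.7%). Epithelial-like cells, by comparison, had shares of 1.65% and 1.90%. Cd40 was at 37.1 CPM and 68.4 CPM (0.88, 0.71 to 1.05), with shares of 5.29% and 7.66%. Tnfsf4 rose from 0.947 CPM to 5.13 CPM (2.44, 1.57 to 3.35) over 18 and 34 UMIs. Tnfsf9, Tnfsf4 and Tnfrsf9 were the 3 of 8 genes higher by 2-fold or more and 4 were lower, beside 8.37% and 7.38% of all features. The lower ones were Tnfrsf4, Tnfrsf18, Icos and Cd27, each with no more than 3 MSA-2 UMIs. Intervals of Tnfrsf18 and Cd27 included 0. The 8 T cell markers summed to 19.7 CPM and 3.02 CPM in the class, and their part was not tested. Of its 6 clusters, 5 had Tnfsf9 higher by 2-fold or more, at log2 ratios from 1.16 to 1.69, and in the cluster led by the histone gene Hist1h1b it was at 0.67 (-0.85 to 1.89) over 47 and 6 UMIs. Tnfsf4 was unevenly spread, with 23 of its 34 MSA-2 UMIs in the cluster led by Folr2 and Lyve1 (1.70 CPM and 13.9 CPM, 3.03, 0.41 to 8.40), against 10 and 1 UMIs in the most numerous cluster. The clusters also differed in number between libraries. The one led by Mmp12 and Met held 5.51% of untreated and 21.9% of MSA-2 macrophage-like cells, and the one led by Folr2 and Lyve1 2.89% and 19.6%. At a fixed make-up, with each cluster weighted by its untreated share of UMIs, the log2 ratios were 1.27 for Tnfsf9, 1.11 for Tnfsf4 and 0.39 for Cd40. The macrophage markers summed to 41696 CPM and 26764 CPM in the class, the 8 Ly6c2 monocyte markers to 697 CPM and 2308 CPM and the neutrophil markers to 168 CPM and 1714 CPM, and their part in the ratios was not tested.

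Tnfrsf9 in macrophage-like cells went from 13.5 CPM (256 UMIs) to 33.3 CPM (221 UMIs), a log2 ratio of 1.31 (1.04 to 1.57), opposite in sign to its ratio in T-like cells. The cluster led by Mmp12 and Met held 167 of the 221 MSA-2 UMIs and was at 64.4 CPM and 136 CPM (1.08, 0.65 to 1.53). The cluster led by Folr2 and Lyve1, genes of resident macrophages, was at 47.7 CPM and 13.3 CPM (-1.84, -2.72 to -0.98). The other clusters with at least 20 UMIs had intervals that included 0. At a fixed make-up of clusters Tnfrsf9 was at 13.5 CPM in both libraries, so the difference was not seen once the cluster shares were held. Without integration the ratio of the whole class was -0.22, with 973 MSA-2 cells called macrophage-like and 1338 in place of 467 called Ly6c2 monocyte-like, so the direction of Tnfrsf9 in this class depended on where the cells were placed. In all myeloid-like cells it was higher under the other alternatives, at 0.33 to 0.73, and lower, at -0.58, at a fixed make-up.

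Ly6c2 monocyte-like cells, recent arrivals from blood, had Tnfsf9 at 12.7 CPM and 49.4 CPM (1.97, 1.19 to 2.83) and Cd40 at 33.2 CPM and 43.7 CPM (0.39, -0.16 to 0.97). At resolution 0.5 the ratio of Tnfsf9 was 1.07 and without integration 1.09, in classes of 807 and 1338 MSA-2 cells. Tnfsf9 was the 1 of 2 tested genes past 2-fold, beside 10.6% higher and 14.6% lower of all features. The neutrophil markers summed to 539 CPM and 3795 CPM in this class, and their part was not tested. Neutrophil-like cells themselves had no more than 12.2 CPM of any of the 9 genes in the MSA-2 library, and this highest value was Tnfrsf18 with 62 UMIs, 13.9% of all its UMIs there. The 56 untreated cells of that class had 0 UMIs of Tnfrsf18, which allows up to 3, and no ratio is given because their total is too small and because their macrophage markers summed to 11700 CPM and Ly6g was at 0.

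DC-like cells, the main cells that prime T cells, numbered 397 and 52 and had higher Tnfsf9, Cd40 and Tnfsf4 in the MSA-2 library. Tnfsf9 rose from 53.5 CPM to 219.5 CPM (2.04, 1.49 to 2.56), Cd40 rose from 58.7 CPM to 163 CPM (1.48, 0.85 to 2.05) and Tnfsf4 rose from 19.3 CPM to 113 CPM (2.54, 1.72 to 3.31). The MSA-2 value of Tnfsf4 rests on 20 UMIs in 5 cells, 12 of them in 1 cell, and without the cell richest in Tnfsf4 in each library the ratio was 1.55. Sub-classes weighted by their untreated shares of UMIs gave 1.43 for Tnfsf9, 0.91 for Cd40 and 1.67 for Tnfsf4, so Cd40 was then within 2-fold. This weighting takes its MSA-2 values of cDC1-like cells from only 3 cells, with 1 UMI of Cd40 and 0 of Tnfsf9 and Tnfsf4. The mature sub-class described next was 18.4% of untreated and 26.9% of MSA-2 DC-like cells. In DC-like cells the Ly6c2 monocyte markers summed to 1252 CPM and 3518 CPM and the neutrophil markers to 469 CPM and 2719 CPM. The macrophage markers summed to 4774 CPM and 518 CPM there, the cDC1 markers to 653 CPM and 152 CPM and the cDC2 markers to 730 CPM and 265 CPM. The part of these shifts in the ratios was not tested. Of 7 tested genes 4 were higher and 2 lower by 2-fold or more, beside 10.1% and 21.8% of all features. The remaining 3 of these calls, for Tnfrsf4 (higher), Tnfrsf9 and Icos (lower), had intervals that included 0. As UMIs per cell rather than CPM, the ratios of Cd40 and Tnfsf9 were 0.49 and 1.05.

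The DC-like cells were unequal. The mature, migratory type marked by Ccr7 and Fscn1 (mregDC-like) numbered 73 and 14 cells and had the highest levels of Cd40 (201 CPM and 397 CPM, 0.99, 0.23 to 1.68), Tnfsf9 (186 CPM and 397 CPM, 1.09, 0.34 to 1.80) and, in both libraries, Tnfsf4 (103 CPM and 307 CPM, 1.58, 0.67 to 2.42) of all classes. Its 6 tested genes included 2 higher and 1 lower by 2-fold or more, beside 11.4% and 19.5% of all features. Of the 17 MSA-2 UMIs of Tnfsf4 12 came from 1 cell, and without the richest cell of each library Tnfsf4 was at 84.6 CPM and 112 CPM (0.41, -1.30 to 1.77), which ends the call and puts it below the 136 CPM of MSA-2 NK-like cells. The ratio of Tnfsf9 was then 0.93, also within 2-fold, and that of Cd40 0.78. Receptors of lymphocytes were present in these cells as well, with Tnfrsf4 at 95.4 CPM and 144 CPM, Tnfrsf18 at 100.3 CPM and 90.3 CPM and Tnfrsf9 at 142 CPM and 54.2 CPM. In the 67 untreated cells without a UMI of any of the 8 T cell markers Tnfrsf4 was at 95.9 CPM, Tnfrsf18 at 98.7 CPM and Tnfrsf9 at 134 CPM, while Icos was at 16.4 CPM against 44.0 CPM in all 73. All 14 MSA-2 cells were without such UMIs. In mregDC-like cells the neutrophil markers summed to 183 CPM and 6101 CPM and the macrophage markers to 1600 CPM and 162 CPM, and their part was not tested. In cDC2-like cells, 237 and 35 in number, Tnfsf9 rose from 36.6 CPM to 159 CPM (2.12, 1.24 to 2.94). It was the 1 of 4 tested genes higher by 2-fold or more there, beside 10.5% of all features, and Tnfrsf9, with 24 UMIs and 0 UMIs from which no fold is given, was the 1 counted lower, beside 22.9%. Cd40 was at 34.5 CPM and 56.3 CPM (0.71, -0.81 to 1.93). In this sub-class the 6 cDC2 markers summed to 1105 CPM and 253 CPM and the Ly6c2 monocyte markers to 1676 CPM and 4528 CPM. The macrophage markers summed to 3185 CPM and 703 CPM there, and the part of these shifts was not tested. Only 3 MSA-2 cells were cDC1-like, too few for a comparison. In untreated cDC1-like cells Tnfrsf9 was at 52.1 CPM over all 87 and at 5.95 CPM over the 49 without T cell marker UMIs.

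**Figure D5:**
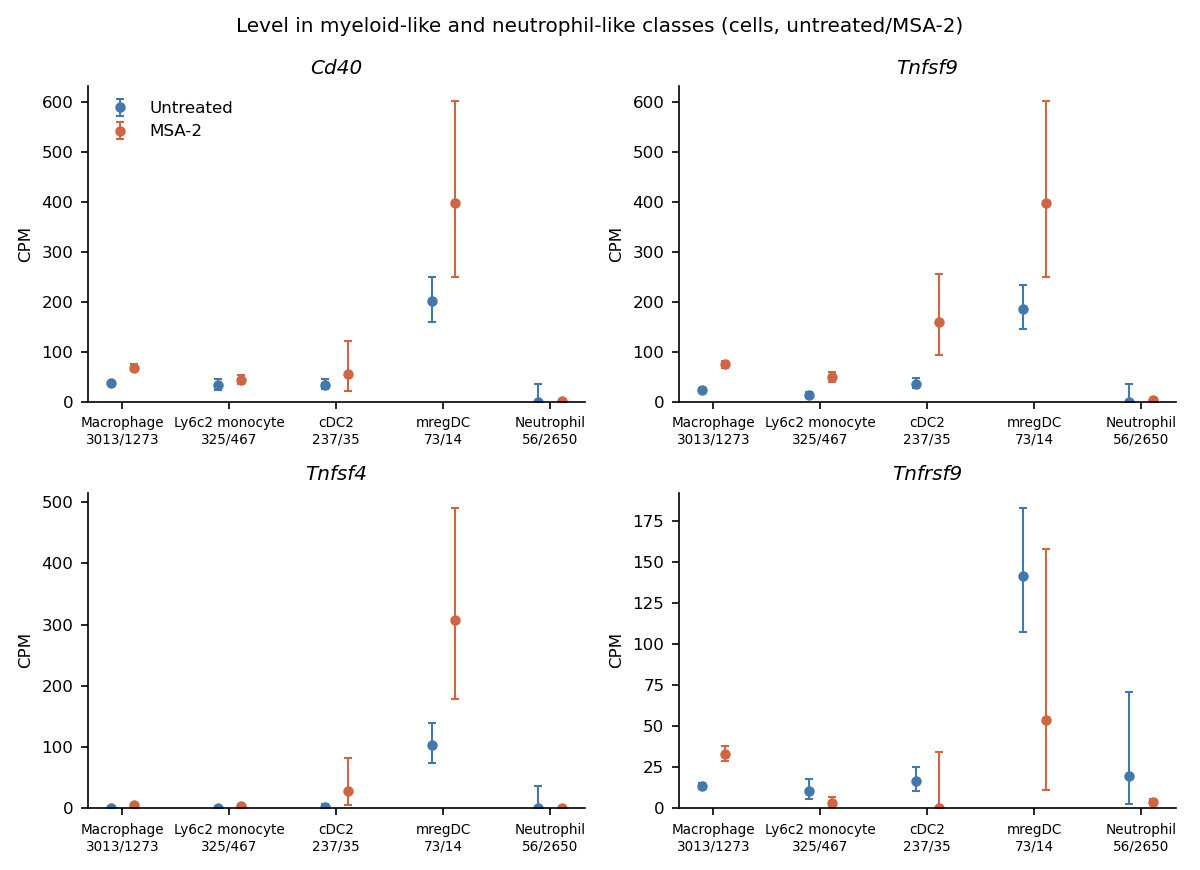
Level (CPM) of Cd40, Tnfsf9, Tnfsf4 and Tnfrsf9 in myeloid-like and neutrophil-like classes of the untreated (blue) and MSA-2 (orange) libraries, with exact 95% Poisson intervals and numbers of cells under each class name. The mregDC-like cells stood highest for Cd40, at 201 CPM and 397 CPM, with wide intervals in the MSA-2 library.

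Outside the immune classes, Tnfsf9 was most abundant in sum in epithelial-like cells, which held 62.3% and 68.9% of its UMIs at 9.51 CPM and 11.7 CPM (0.30, 0.20 to 0.40). Tnfrsf9 in these cells was at 7.32 CPM and 9.46 CPM (0.37, 0.26 to 0.48) and Tnfsf4 at 1.56 CPM and 0.876 CPM (-0.83, -1.14 to -0.52). The class lay in different clusters in each library, since one cluster held 28.1% of its untreated and 6.04% of its MSA-2 cells, another 0.982% and 18.9%, and one more 1.36% and 17.8%. At a fixed make-up of clusters Tnfsf4 was at 1.56 CPM and 1.54 CPM (-0.02), while Tnfsf9 was at 0.35 and Tnfrsf9 at 0.42. Endothelial-like cells had Tnfrsf9 at 72.1 CPM and 71.7 CPM (-0.01, -0.58 to 0.57), with no difference beyond counting error, and neither of their 2 tested genes was past 2-fold, beside 6.3% higher and 7.22% lower of all features. In fibroblast-like cells Cd40 rose from 2.27 CPM (15 UMIs) to 5.26 CPM (63 UMIs), a log2 ratio of 1.21 (0.39 to 2.13), and Icos fell from 3.18 CPM (21 UMIs) to 0.251 CPM (3 UMIs). They were the 2 of 6 tested genes past 2-fold, beside 8.93% higher and 9.68% lower of all features. One cluster held 43.1% of untreated and 91.2% of MSA-2 fibroblast-like cells and another 51.2% and 5.94%, and at a fixed make-up Cd40 was at 2.27 CPM and 2.95 CPM (0.38), within 2-fold, and Icos at -4.94. The T cell markers summed to 35.8 CPM and 8.61 CPM in this class, the Ly6c2 monocyte markers to 2878 CPM and 4939 CPM and the neutrophil markers to 21.2 CPM and 841 CPM, and their part was not tested.

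The rest of the pathway was read from 19 further costimulatory receptors and ligands and from 23 genes of the relay below them. In NK/T-like cells 2 of 15 tested receptors and ligands were higher and 4 lower by 2-fold or more, beside 5.34% and 8.8% of all features, and with at least 50 UMIs 2 of 10 were higher and 1 lower. Tnfsf8, the CD30 ligand, rose from 48.2 CPM to 145 CPM (1.59, 1.33 to 1.85) and Slamf1 rose from 46.5 CPM to 96.8 CPM (1.06, 0.76 to 1.35), whereas Tnfrsf1b, the TNF receptor that T cells induce, fell from 159 CPM to 53.5 CPM (-1.57, -1.91 to -1.25). Tnfrsf25, Tnfrsf8 and Tnfrsf13b were lower at under 10 CPM, with intervals that included 0. Of the 23 relay genes none was higher and 4 were lower: Bcl2l1, which encodes the survival protein BCL-xL (68.0 CPM and 21.6 CPM, -1.65, -2.20 to -1.14), the ubiquitin ligase gene Birc2 (-1.35), the kinase gene Mapk8 (-1.14) and the transcription factor gene Maf (-1.04). The median ratios of both lists were -0.58 and -0.12, beside -0.14 for all features. In T-like cells without the NK-like ones 3 of 15 receptors and ligands were higher and 3 lower, beside 6.2% and 10.6% of all features. Their median was -0.37. In NK-like cells 2 of 6 were higher and 2 lower, with a median of -0.63, beside 5.25% and 8.04% of all features. Within CD8 T-like and Treg-like cells the median of the receptors and ligands lay above 0. In CD8 T-like cells 3 of 10 were higher and 1 lower, with a median of 0.45, beside 6.67% and 14.4% of all features. In Treg-like cells 4 of 7 were higher and none lower, with a median of 1.27 over few UMIs, beside 8.62% and 25.3%, and with at least 50 UMIs 2 of 5 were higher. The relay genes of Treg-like cells lay the other way, with 8 of 17 lower, 1 higher and a median of -0.77. With at least 50 UMIs 4 of 11 were lower. Of the receptors and ligands, Slamf1 (1.76 and 2.19 in CD8 T-like and Treg-like cells) and Tnfsf8 (1.43 and 2.97) were higher in both, and Tnfrsf1b was the lower gene of CD8 T-like cells (-1.18). The others were Cd80 in both (1.26 and 1.27) and Cd86 in Treg-like cells (1.60), ligands of CD28 that are named here after their values were seen. In CD8 T-like cells the neutrophil markers summed to 38.4 CPM and 411 CPM and the macrophage markers to 1061 CPM and 254 CPM. In Treg-like cells the neutrophil markers summed to 117 CPM and 580 CPM and the macrophage markers to 1238 CPM and 325 CPM. Their part in these ratios was not tested.

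In myeloid-like cells 5 of 16 tested receptors and ligands were higher and 4 lower by 2-fold or more, beside 9.14% and 8.97% of all features. Tnfsf15 (12.7 CPM and 75.8 CPM, 2.58, 2.38 to 2.78) and Tnfsf8 (20.3 CPM and 65.0 CPM, 1.68, 1.51 to 1.86) were ligands that rose with Tnfsf9 and Tnfsf4, and Tnfrsf8, Cd226 and Slamf1 were higher at under 6 CPM. Tnfsf13b, which encodes the B cell survival factor BAFF, fell from 55.6 CPM to 16.6 CPM (-1.74, -2.00 to -1.49), and the ligand of ICOS, Icosl, from 13.8 CPM to 5.73 CPM (-1.27, -1.73 to -0.84). Cd28 and Tnfrsf14 were lower at under 3 CPM. Of 23 relay genes 2 were higher and 3 lower. The NF-κB inhibitors Nfkbia (1605 CPM and 3723 CPM, 1.21, 1.19 to 1.24) and Tnfaip3 (280.4 CPM and 946 CPM, 1.75, 1.71 to 1.80) rose and Map3k14, which encodes the kinase NIK (53.4 CPM and 22.2 CPM, -1.27, -1.49 to -1.05), fell with Bcl2 (-1.43) and Irf4 (-1.46). The shift of marker sums and clusters in this class, given above for Tnfsf9, applies to these genes too. At its fixed make-up Tnfsf15 (2.71), Tnfsf8 (2.09), Tnfsf13b (-1.31) and Tnfaip3 (1.57) stayed past 2-fold, whereas Nfkbia (0.96), Map3k14 (-0.93), Bcl2 (-0.69), Irf4 (-0.58) and Icosl (-0.65) were within it.

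Genes whose level was most like that of a member were ranked by the Pearson correlation of log2 of CPM plus 10 over 28 pairs of class and library, among 6934 features. Pairs of 1 library share depth and free RNA, so the values are descriptions. Icos was most like Sntb1 (0.97), Cd2 (0.96) and Camk4 (0.96), and Tnfrsf4 like the T cell surface genes Cd5 (0.94) and Cd6 (0.93) and Icos (0.93). Tnfrsf9 was most like Osbpl3 (0.94), Stat3 (0.93) and Tbx21 (0.93), Tnfrsf18 like Tbc1d10c (0.94), Cd2 (0.93) and Tigit (0.93), and Cd27 like Gimap7, Zap70 and Gimap3 (each 0.97). Cd40lg followed Cd163l1 (0.99), Il17a (0.98) and Actn2 (0.96), of which Il17a leads the cells with the largest part of its UMIs. Cd40 (Lipe 0.89, Uvrag 0.87, Tbc1d9 0.87), Tnfsf4 (Atr 0.83, Plscr1 0.82, Serpinb9 0.80) and Tnfsf9 (Gm38115 0.88, Tmem131 0.84, Fbxw11 0.78) had less close neighbours.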

How the data were processed

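Single-cell 3′ RNA-seq (10x Chromium v3.1) was analysed for 1 untreated and 1 MSA-2 library. The authors deposited raw counts of UMIs per gene and barcode, without normalization, made with Cell Ranger (version 7.0.0 per the labels, 7.0.1 per the file headers) on mm10; Seurat 4.3.0 is also named in the submitters' processing notes, and removal of doublets before deposit is not given in the sources used here. No values were normalized between libraries by the authors.

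Cells needed 500 genes or more and a mitochondrial share of UMIs of no more than 20%. Doublets called per library with Scrublet in scanpy 1.11.5 (5.15% and 4.01%) were removed. Libraries were joined by reciprocal PCA in Seurat 5.3.0 (R 4.3.3, 30 dimensions, resolution 1) on 2000 of 3000 variable genes, leaving out the 9 members, the other pathway genes and 145 features with names of interferon-stimulated genes. Clusters were named from marker lists, and NK/T-like and myeloid-like cells were clustered again. The members and lists were chosen with earlier results of these data known, and the rule for naming T cell clusters was adjusted once clusters were known. Class names were rebuilt here, so a difference from the study may come from them. A cluster of 412 untreated and 8 MSA-2 myeloid cells stayed unnamed and is counted only as myeloid-like. A further 730 untreated and 822 MSA-2 cells stayed unnamed outside all classes and held 2.22% and 8.64% of Cd40 UMIs. Their log2 ratios were 1.56 (0.89 to 2.27) for Cd40, 1.35 (0.69 to 2.05) for Tnfsf9 and 1.06 (-0.23 to 2.48) for Tnfrsf9.

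UMIs were summed per class and scaled to CPM. Log2 ratios of MSA-2 over untreated have conditional binomial, shares Clopper-Pearson and levels Poisson intervals, all exact at 95% and for counting error only. A gene was tested in a class where both libraries summed to 20 UMIs or more, and called at a ratio of 2-fold or more. A count of 0 was taken to allow 3. No p-value was computed, because cells are not replicates. Genes were named by rule: the 9 members, pathway genes past 2-fold in NK/T-like or myeloid-like cells, the 3 features most like each member, and class markers; features had to reach 50 CPM and 20 UMIs in 1 pair of at least 20 cells to be ranked. The computation was tested on simulated data. Python 3.11.15 with numpy 2.4.6, scipy 1.17.1, pandas 2.3.3 and matplotlib 3.10.9 was used. Alternatives concerned the cell filter, doublets, integration, variable genes, resolution, scaling (TMM factors of edgeR 4.0.16, equal weight per cell, UMIs per cell), cell definition, minimum UMIs and thinning.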

Additional observations from a re-analysis of the deposited data

Results flagged for a closer look

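Ratios with intervals on opposite sides of 0 in different classes were found for 2 genes, and neither difference between classes was tested. Tnfrsf9 had a log2 ratio of 1.31 in macrophage-like cells, where a fixed make-up of clusters gave 13.5 CPM in both libraries, and of -1.61 in Treg-like cells. Tnfsf4 had one of 2.44 in macrophage-like cells and of -0.83 in epithelial-like cells. In both classes the clusters differed in number between the libraries, and at a fixed make-up the ratios of Tnfsf4 were 1.11 and -0.02, the second close to 0. Within macrophage-like cells Tnfrsf9 also differed in sign between clusters, at 1.08 in the cluster led by Mmp12 and Met and -1.84 in the cluster led by Folr2 and Lyve1.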

How the results depend on the processing

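Ratios of 37 pairs of gene and class were recomputed under up to 12 alternatives, of which leaving out the cell richest in a gene was chosen after seeing the data. Of 416 values 403 kept the sign, and of 198 values for pairs past 2-fold 197 did. The exception was Tnfrsf9 in macrophage-like cells, at -0.22 without integration. Without integration, 0 of the 9 genes were lower (2 with integration) and 0 higher (1 with it) by 2-fold or more in NK/T-like cells. Of the other costimulatory and relay genes in NK/T-like cells, 5 instead of 8 were lower by 2-fold or more with at least 50 UMIs. Doublets and TMM factors moved no ratio beyond its interval in the pairs run, whereas UMIs per cell did so for 17 of 37. No paired analysis was possible because each group has 1 library, and no replicate could be left out. After seeing the data, a fixed make-up was also applied to macrophage-like, DC-like, myeloid-like, epithelial-like and fibroblast-like cells, and mregDC-like and cDC2-like cells were taken without the richest cell; Tnfrsf9 in macrophage-like and Cd40 in DC-like and fibroblast-like cells lost the 2-fold call at a fixed make-up, as did Icos, Tnfrsf4 and Tnfrsf18 in myeloid-like cells, the last 2 with a change of sign (0.11 and 0.50), and Tnfsf4 and Tnfsf9 in mregDC-like cells lost it without that cell. Depth limits classes with few MSA-2 cells, such as the mregDC-like (14), Treg-like (17), Il17a-led (26) and cDC2-like (35).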
